A study of Drosophila melanogaster with 2 samples.

Results

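The genes described here are the Notch receptor gene N, its ligand genes Dl and Ser, and 7 core components of the pathway, fng, kuz, neur, numb, Su(H), H and mam. They were chosen by name, 10 of 13945 protein-coding genes of the Drosophila melanogaster annotation. For each gene, every peak was taken whose summit lay in the gene span or within 2 kb of it. The data are peak lists from chromatin immunoprecipitation sequencing of mixed-sex whole embryos aged 0 to 24 h, from a transgenic line in which GFP is fused to the C terminus of E(spl)mβ-HLH. The series held 1 group of 2 biological replicates of this line, numbered 1 and 3, with chromatin sonicated to 200 to 800 bp. Both carried the same transgene, and there was no second group to compare them with here. Which promoter drives the fusion gene is not stated in the labels.

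The tagged protein is a transcriptional repressor with a basic helix-loop-helix domain, encoded in a gene complex whose members are switched on by Notch signalling. Delta (Dl) and Serrate (Ser) are transmembrane ligands that bind Notch on the neighbouring cell, and Fringe (fng) adds sugars to Notch that alter which ligand it answers to. Neuralized (neur) is a ubiquitin ligase that drives endocytosis of the ligands. Kuzbanian (kuz) is the ADAM protease that cuts ligand-bound Notch, and Numb blocks the receptor in 1 daughter of an asymmetric division. The freed intracellular part of Notch joins Suppressor of Hairless, Su(H), on DNA and recruits Mastermind (mam), whereas Hairless (H) turns Su(H) into a repressor when Notch is silent. The question put to the lists was where, along the pathway's own genes, peaks of this Notch-responsive repressor were listed.

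The authors deposited 4 lists: the peaks of replicate 1, those of replicate 3, those of both pooled, and a reproducible list, cut at a threshold of the irreproducible discovery rate. The reproducible list held 5744 peaks, which were the 5744 strongest of the pooled list, and each other list held 30000. A peak is called reproducible here for its place in that list, which did not require a peak in both replicates. Signal is the authors' value per peak, and rank 1 is the strongest peak of a list. Each list has its own scale. A signal is therefore read only within its list, and no SD was formed over the replicates. Depth is unknown, because the lists hold no read counts. The free-text description of both samples speaks of an input control, while their assay title and antibody field name a factor that was precipitated. That conflict of the labels bears on every value given. Whole embryos also average over all cell types, so a peak present in a few cells and a weak peak in many cannot be told apart. With 1 group of 2 replicates no test was made.

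Peaks of the reproducible list stood at 4 of the 10 genes, kuz, neur, numb and mam. The other 6, N, Dl, Ser, fng, Su(H) and H, had 0 summits within their span and 2 kb in any of the 4 lists. Of all protein-coding genes, 39.3% had a reproducible summit in the same window, so 4 of 10 lay near the background. Long genes hold more summits. The share was 35.8% of genes under 10 kb, 59.8% of genes of 10 to 50 kb and 63.8% of genes over 50 kb. Su(H) and H were under 10 kb, and neither had a peak. Of N, Dl, Ser, neur, fng and numb, all of 10 to 50 kb, 2 had a reproducible summit. Both genes over 50 kb, mam and kuz, had one.

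The background depended on the window and on the list. With no flank around the span, the same 4 genes had a reproducible summit, against 15.9% of all coding genes. The shares by length were then 10.7% under 10 kb, 46.0% at 10 to 50 kb and 56.4% over 50 kb. With only the 1000 strongest pooled peaks and the 2 kb flank, the same 4 genes again had one, against 11.1% of all coding genes. There the shares were 9.58%, 19.8% and 22.5% in the 3 length classes. Other settings kept the same 4 genes, against 50.6% of all coding genes with a 5 kb flank and 33.8% with a 1 kb flank. The share was 26.1% with the stronger part of the reproducible list, 40.2% without replicate 1 and 39.1% without replicate 3. The 4 of 10 thus lay below the background with the 5 kb flank and near it with either replicate left out. Windows empty of every pooled and replicate summit were found at 6 of 10 Notch genes and at 34.8% of coding genes. They made up 37.9% of genes under 10 kb, 16.6% of those of 10 to 50 kb and 13.0% of those over 50 kb. The Notch genes with empty windows were 2 of 2, 4 of 6 and 0 of 2 in these classes. With so few genes per class these counts are a description.

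**Figure D1:**
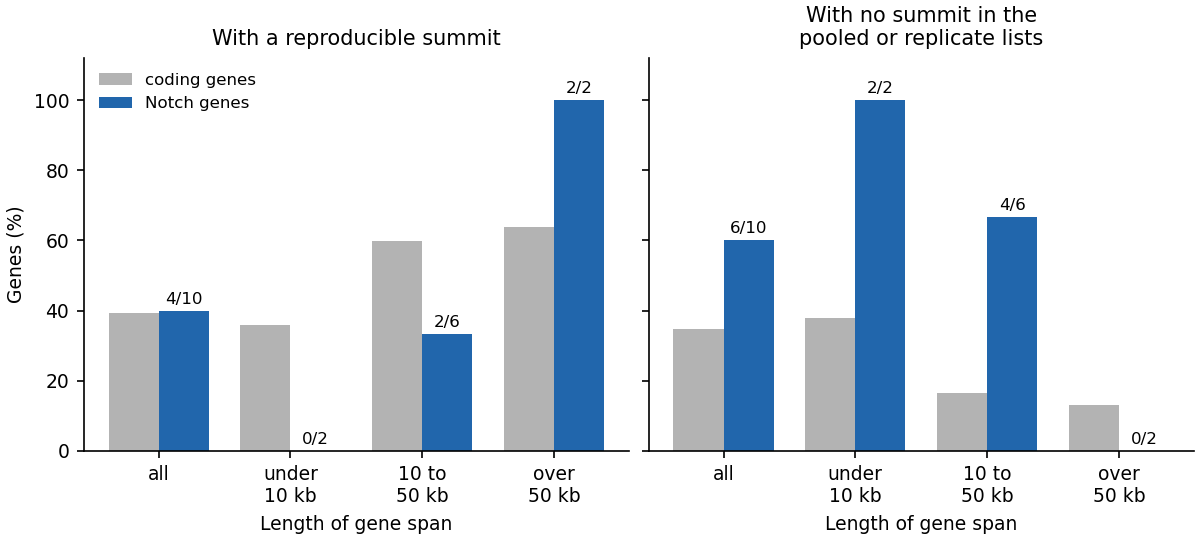
Share of genes (%) with a reproducible summit (left) and with no summit of the pooled or replicate lists (right) in the gene span and 2 kb, for all protein-coding genes (grey) and the 10 Notch genes (blue), by length of the gene span. Fractions over the blue bars give the Notch genes counted. Overall 4 of 10 had a reproducible summit beside 39.3% of coding genes, and 6 of 10 had no summit beside 34.8%.

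The receptor and ligand genes lay inside long stretches without a peak. Notch (dm6 X:3134870-3172221, plus strand) sat in a gap of 48.0 kb between pooled summits. The nearest of these lay 3.4 kb beyond its end, near CG3939, with a signal of 45.9 and rank 24476. The nearest upstream stood 7.2 kb away, near kirre, with a signal of 48.8. Both were below the median of the pooled list, 77.7. The replicates listed the downstream peak above their own medians of 49.1 and 38.2, with 51.9 at rank 14198 in replicate 1 and 60.0 at rank 9025 in replicate 3. These summits of N are the ones closest outside the 2 kb limit of any of the 6 genes in the pooled list, whereas the outermost reproducible summit inside it lay 1744 bp upstream of kuz.

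Delta (3R:19302731-19326217, minus strand) had the longest gap of the 6 genes, 181.9 kb, which held 18 coding genes. The nearest pooled summits stood 81.4 kb upstream and 77.1 kb downstream of it. Serrate (3R:27172090-27194267, minus strand) lay in a gap of 87.3 kb, with pooled summits 51.0 kb upstream, near CG18766, and 14.1 kb downstream, near grass. The gap around fng (3L:20925891-20949512, minus strand) was 106.9 kb. Its nearest upstream peak, 60.3 kb away in the span of skd, was also in the reproducible list, with a signal of 319 and rank 2474. Each replicate listed the same gaps within 4 kb: 181.9 and 185.9 kb at Dl, 87.3 and 87.2 kb at Ser, 107.1 and 107.2 kb at fng, and 48.0 and 48.6 kb at N for replicates 1 and 3.

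The DNA-binding effector and its co-repressor partner were likewise without a peak. Su(H) (2L:15039488-15043334, plus strand) stood in a pooled gap of 37.2 kb, although the start of its neighbour CIAPIN1 lay 627 bp away on the opposite strand. The nearest pooled summits were 18.8 kb upstream and 14.5 kb downstream. Hairless (3R:20621938-20628915, plus strand) stood in a pooled gap of 80.1 kb. Replicate 1 alone listed a summit 5.5 kb downstream of H, near Pi3K92E, with a signal of 62.8 and rank 11555, which shortened its gap to 33.9 kb. In replicate 3 the gap at H was 79.0 kb.

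Gaps of this length are unusual by number but cover much of the genome. Consecutive pooled summits had a median distance of 1.2 kb. Of the 6 arms, 40.5% lay in gaps at least as long as that at Su(H), 35.0% at N, 26.4% at H, 25.1% at Ser, 22.3% at fng and 16.4% at Dl. Peaks of these lists were thus unevenly spaced, and long gaps hold many genes besides these 6. The stretches at the ends of the arms count as gaps, which raises these shares. Overlapping peaks with summits close together lower the median distance.

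**Figure D2:**
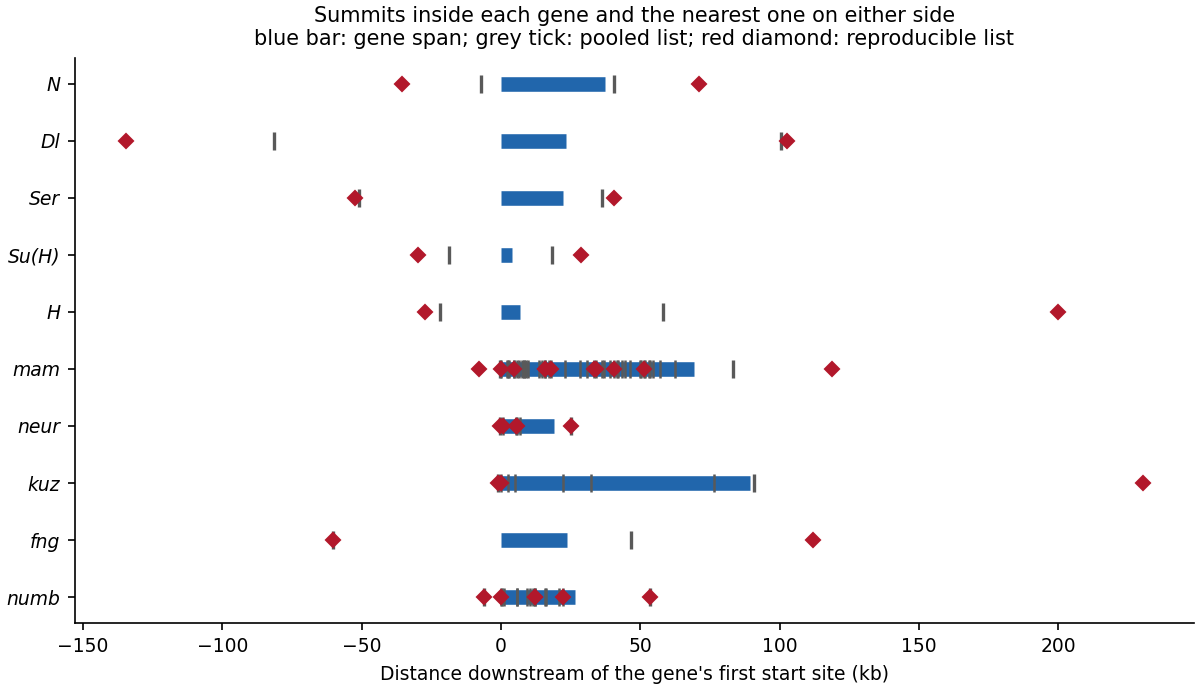
Summits at the 10 genes. The x axis is the distance (kb) downstream of the first start site, the blue bar is the gene span, grey ticks are summits of the pooled list and red diamonds those of the reproducible list, drawn inside each span with the nearest one on either side. N, Dl, Ser, Su(H), H and fng have none in the span, and the pooled gap ranges from 37.2 kb at Su(H) to 181.9 kb at Dl.

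The 4 genes with peaks held 20 reproducible summits, 9 at mam, 4 at neur, 4 at numb and 3 at kuz. Their median signal was 327 (lowest 192, highest 845), beside 294 for all 5744 peaks. The strongest peak of each gene had a signal of 845 at kuz, 843 at mam, 695 at numb and 625 at neur. Replicate 1 gave 503, 477, 393 and 383 for the same peaks, and replicate 3 gave 366, 358, 305 and 250. The order was the same in both replicates and in the pooled list, which was made from them. The smallest step was between kuz and mam in the pooled list and in replicate 3, and between numb and neur in replicate 1. Of the 20 peaks, 17 (85.0%, 95% Wilson interval 64.0 to 94.8%) overlapped one of the 5744 strongest peaks of both replicates, beside 79.4% of the whole list. The interval covers counting error only. Where the replicate summit had to lie within 100 bp of the pooled one, a rule chosen after the values were seen, 14 of the 20 did so, beside 70.5% of the whole list. The other 3 of the overlap count were the outer mam peaks, ranked 5835 and 6505 in replicate 3, and a numb peak with no counterpart in replicate 1. Over the 16 distinct pairs of strongest overlapping replicate peaks, the ranks had a Spearman rho of 0.91. These points share 4 genes and the 2 libraries, so the coefficient only describes them.

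**Figure D3:**
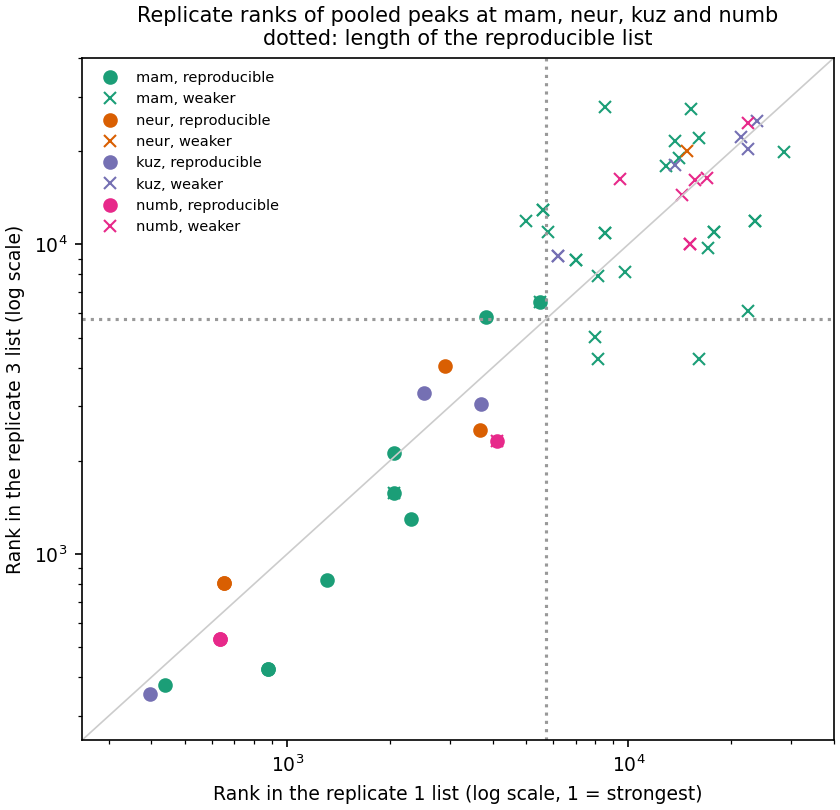
For each pooled peak at mam, neur, kuz and numb, rank of the strongest overlapping peak in the replicate 1 list (x, log scale) and in the replicate 3 list (y, log scale), where 1 is the strongest. Circles are reproducible peaks, crosses are weaker pooled peaks, and dotted lines mark rank 5744. Most reproducible peaks fall inside both dotted lines, 2 mam peaks lie above rank 5744 in replicate 3, and the numb peak with no replicate 1 counterpart is not drawn.

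A reproducible summit stood within 1 kb of a transcription start site (TSS) at 4 of the 10 genes, beside 27.9% of coding genes. Among genes with any reproducible summit in the window, these were 4 of 4, beside 70.9% of such coding genes. Of the 15 start positions of the 10 genes, 8 had one, beside 29.0% of all coding start positions. The 8 were every start of the 4 genes: 3 of mam, 2 of neur, 2 of numb and the single start of kuz. Among coding genes, 1301 had starts over 2 kb apart, and 57.8% of these had a reproducible summit at 1 or more starts. Of those in turn, 18.8% had a summit at every start, as mam, neur and numb did. This last comparison was chosen after the values were seen. It was not matched for the number of starts, which is 3 at mam and 2 at neur and at numb. In all, 12 of the 20 summits lay within 1 kb of an own TSS. Within 1 kb of the TSS of another coding gene lay 7, among them every one of kuz, so some cannot be given to the Notch gene alone.

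**Figure D4:**
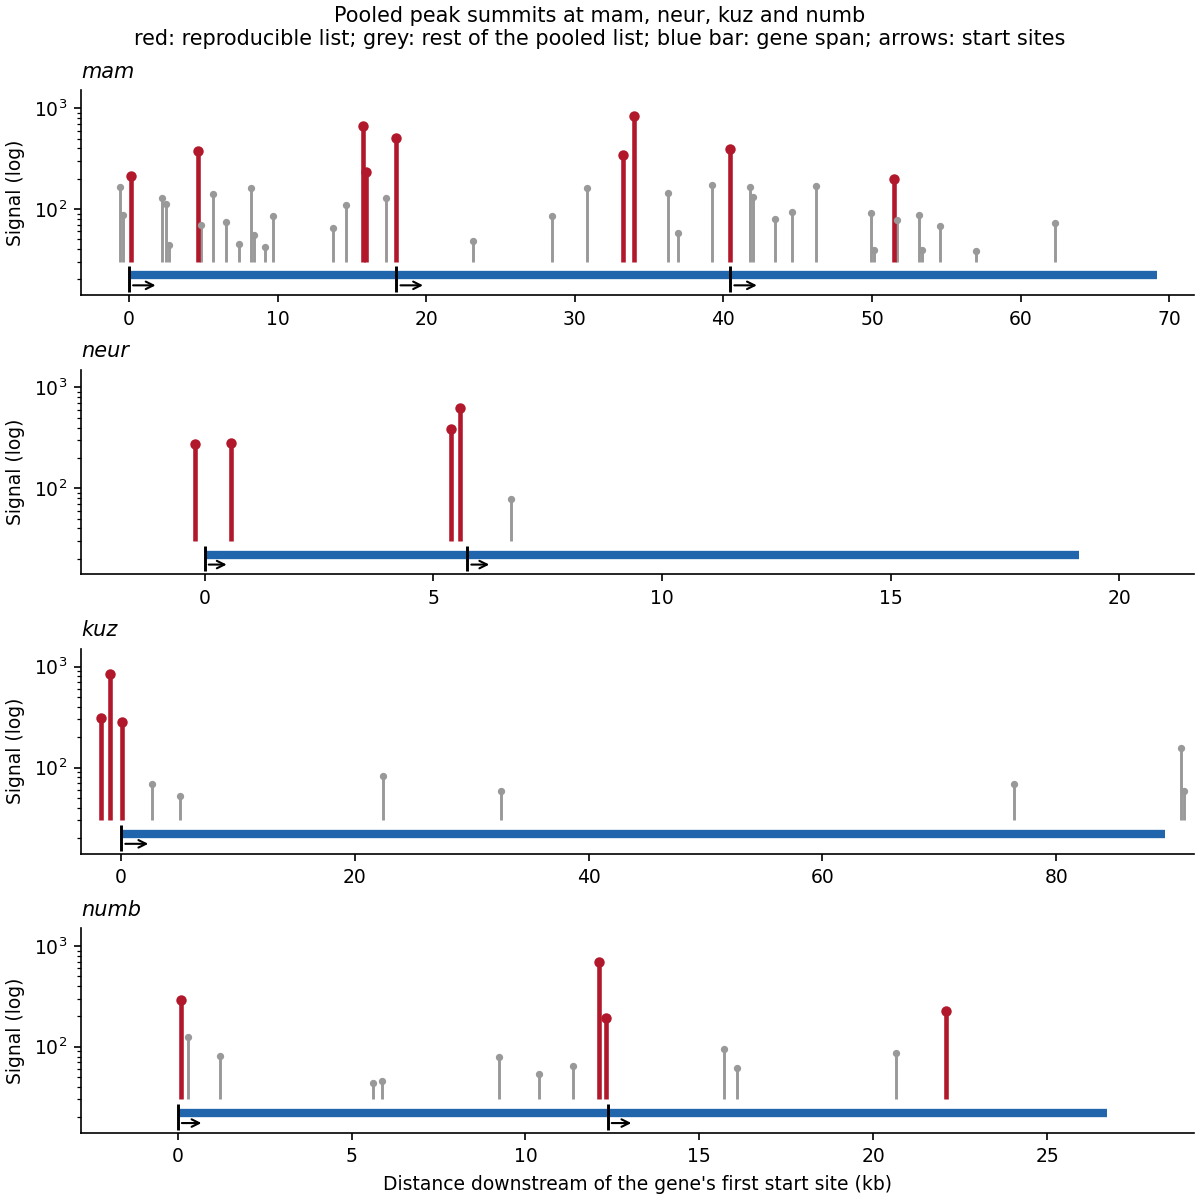
Pooled peaks along mam, neur, kuz and numb. The x axis is the distance (kb) downstream of the first start site, the y axis is the pooled signal on a log scale, red marks reproducible peaks, grey marks the rest of the pooled list, the blue bar is the gene span and arrows mark start sites. Reproducible peaks stand at all 3 starts of mam, both starts of neur and numb, and the start of kuz, with further ones in introns of mam and numb.

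The protease gene kuz (2L:13550139-13639411, plus strand) carried all its reproducible peaks around its single start, which 5 transcripts share. The strongest summit lay 933 bp upstream of that start, with a pooled signal of 845 and rank 385. It ranked 396 in replicate 1 and 353 in replicate 3. This summit was 122 bp from a TSS of B4, a gene on the opposite strand whose nearest start is 811 bp from that of kuz. A second one stood 1744 bp upstream, inside B4 and 624 bp from a TSS of B4. It had a signal of 312, with 188 in replicate 1 and 121 in replicate 3. The third lay 76 bp into the 5′ UTR of kuz and 887 bp from a TSS of B4, with 281, 149 and 127. All 3 summits were thus within 1 kb of a TSS of B4 and cannot be given to kuz alone. The peak at the kuz start was thus the weakest of the 3 in the pooled list and in replicate 1, and the middle one in replicate 3.

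The rest of the long kuz gene held 5 weaker pooled peaks, in introns 2, 3 and 5, with signals from 52.0 to 82.1. A further pair beyond its end stood at the start of ics, with 156 and 58.8. Peaks of the pooled list had a density of 0.107 per kb at kuz, against 0.601 at mam, 0.456 at numb and 0.216 at neur. Of the 307 coding genes over 50 kb, 208 had more pooled summits than kuz, and 79 had more reproducible ones.

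Hairy and E(spl) proteins are known to bind the words CACGTG and CACGCG and the N-box CACNAG, where N is any base, so the bases at the kuz summits are shown. These 3 kinds of word were sought on both strands within 100 bp of each summit, and no 6 letters can be 2 of them at once. All 3 kuz windows held CACGTG or CACGCG. The sequences come from RefSeq's copy of dm6, are written on the plus strand, which is the strand of kuz, and carry the words in capitals, where CGCGTG is CACGCG read on the other strand. The first is the 201-base window around the summit 1744 bp upstream (chr2L:13548295-13548495), which has CACGTG and CACAAG. The others are 30-base sites, in the 5′ UTR of B4 (chr2L:13549158-13549187) and in that of kuz (chr2L:13550217-13550246).
kuz upstream window: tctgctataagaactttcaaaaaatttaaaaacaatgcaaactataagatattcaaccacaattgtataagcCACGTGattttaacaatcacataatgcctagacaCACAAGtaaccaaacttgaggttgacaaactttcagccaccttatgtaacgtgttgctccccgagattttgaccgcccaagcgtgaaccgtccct
kuz peak at B4: aagcggcgacgaCACGCGaccaaaggcaca
kuz peak at its own start: aaaatcgctggaCGCGTGttcgtgcgtttg
The CACGTG word lay 25.5 bp from its summit, measured to the centre of the word, and the CACGCG words lay 33.5 and 16.5 bp from theirs.

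The gene numb (2L:9437469-9464184, plus strand) had reproducible peaks at both of its starts, which lie 12.4 kb apart. At the first, used by transcript RB, a summit 89 bp into the 5′ UTR had a pooled signal of 288, rank 2949, with 140 in replicate 1 and 147 in replicate 3. RpS28-like starts 665 bp from this TSS on the same strand. At the second, used by transcripts RA and RD, the strongest numb summit stood 255 bp upstream, in intron 2 of RB, with a pooled signal of 695, rank 582, and ranks of 637 and 530 in replicates 1 and 3. A smaller summit of signal 192 lay 50 bp upstream of the same start, with a separate peak of signal 138 in replicate 1 and none of its own in replicate 3. No other coding TSS was closer than 8835 bp to the strongest summit. The second start thus carried a stronger peak than the first in both replicates and in the pooled list made from them.

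Further downstream, 22.1 kb from the first start, numb held an intronic peak with a pooled signal of 224 and rank 4385. It lay in intron 1 of RA and intron 2 of RB and RD. Replicate 3 listed it with a signal of 129 at rank 2950, and replicate 1 listed no peak there. The other 10 pooled peaks at numb had signals from 43.7 to 125. Of 1670 coding genes of 10 to 50 kb, 145 had more than the 4 reproducible summits of numb.

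The 2 starts of numb differed in the words near their strongest summit. The summit at the first start had CACGCG with its centre 4.5 bp away, printed here as a 30-base site in the 5′ UTR (chr2L:9437548-9437577). The 201-base window around the stronger summit at the second start (chr2L:9449475-9449675) had none of the 3 kinds of word, and the CGATAG in capitals is a word added after the values were seen. Both are on the plus strand of dm6, the strand of numb, from RefSeq.
numb first start: tgtgtgtgcgtgCACGCGcgggtgtgtgtt
numb second start: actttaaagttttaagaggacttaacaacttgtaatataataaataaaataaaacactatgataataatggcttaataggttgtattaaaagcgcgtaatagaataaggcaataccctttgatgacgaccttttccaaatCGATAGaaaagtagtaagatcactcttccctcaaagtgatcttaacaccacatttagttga
The GC content was 53.7% in the 201-base window at the first start and 29.9% at the second.

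Neuralized is encoded by neur (3R:9020348-9039471, minus strand), which also has 2 start positions, 5.7 kb apart. The internal one, used by transcripts RA and RB, had the strongest peaks. A summit 151 bp upstream of it had a pooled signal of 625 and rank 709, with 383 at rank 654 in replicate 1 and 250 at rank 808 in replicate 3. Another, 363 bp upstream, had a signal of 388 and rank 1715 and there replicate 1 listed a separate peak of signal 293 and rank 1068, while replicate 3 listed a single peak for both. Both lay in intron 1 of the 3 longer transcripts, over 4 kb from any other coding TSS. The outer start, used by RC, RD and RE, is 295 bp from the nearest start of hyx, a gene on the opposite strand that overlaps neur. There the summits 215 bp upstream and 578 bp downstream had signals of 273 and 284. They lay 80 and 133 bp from different TSSs of hyx, the latter of which is inside neur. Both summits were inside hyx, so they cannot be told apart from peaks of hyx. The only weaker pooled peak of neur, 969 bp downstream of the internal start, had a signal of 77.8 and rank 14988.

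The window of the strongest neur summit is shown because it has the strongest neur signal and no annotated UTR lies in it. This window has none of the 3 kinds of E(spl) word or the Su(H) words. It is given on the minus strand, the strand of neur, from RefSeq's dm6 (chr3R:9033782-9033982).
neur internal start: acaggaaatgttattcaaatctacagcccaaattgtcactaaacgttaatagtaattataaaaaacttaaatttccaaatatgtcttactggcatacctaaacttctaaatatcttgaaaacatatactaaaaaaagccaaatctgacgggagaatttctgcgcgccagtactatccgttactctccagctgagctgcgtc
Its GC content was 34.8%. The other 3 neur windows had none of these words either, while words added after the values were seen stood in 2 of them, CGATAG at the summit 578 bp downstream of the outer start and GAGAGAG at the one 363 bp upstream of the internal start.

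Over the 20 windows, CACGTG or CACGCG stood in 4 (20%, 95% Wilson interval 8.1 to 41.6%), against 11.7% of the 5744 windows of the whole list. These 4 were the 3 at kuz and the one at the first numb start, and the 9 windows of mam had none. The intervals treat the 20 windows as independent, although they share 4 genes, and are therefore too narrow. CACGTG alone stood in 1 (5.00%, against 4.07%) and CACGCG in 3 (15%, against 8.10%). The CACNAG words stood in 4 (20%, against 23.0%). The Su(H) words CGTGAGAA, CGTGGGAA, TGTGAGAA and TGTGGGAA stood in 0 of 20, which allows a share of up to 16.1% by the Wilson interval, against 2.05% of the whole list. The median GC content was 43.5% in the 20 windows and 39.8% in all. A word in a window is a match of letters and shows no binding, and its absence covers only these 201 bases.

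The co-activator gene mam (2R:13991203-14060356, plus strand) had the most peaks of the 10, with 44 pooled and 9 reproducible summits. Of the 307 coding genes over 50 kb, 16 had more reproducible summits. Replicate 1 listed 45 summits there and replicate 3 listed 41. A reproducible summit marked each of the 3 starts. The first, of transcript RA, had one 129 bp into the 5′ UTR with a signal of 211 and rank 4814, and RN-tre starts 496 bp away on the opposite strand. The second, of RB and RD, had one 13 bp upstream with a signal of 505, and the third, of RC, one 39 bp upstream with 393. The peak at the outermost start was thus the weakest of the 3 in the pooled list, and also in replicate 1 (147, 267 and 198) and in replicate 3 (84.3, 247 and 197).

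The other 6 reproducible summits of mam were intronic and over 1 kb from any coding TSS. The strongest, 34.0 kb downstream of the first start, had a pooled signal of 843 and rank 386, and ranked 439 in replicate 1 and 378 in replicate 3. It lay in intron 2 of RB and RD and intron 3 of RA, 6457 bp upstream of the third start, with a neighbour of signal 342 at 33.3 kb. In intron 2 of RA, summits at 15.8 and 16.0 kb had signals of 661 and 235. Replicate 1 listed them with 325 and 80.9, and replicate 3 with 338 and 73.1, so the second of the pair ranked below 5744 in both. The first of these lay 977 bp from the annotated start of mir-4978. A summit at 4.7 kb had a signal of 380, with 211 and 179 in the replicates. The last, at 51.5 kb, had the second lowest signal of the 20, 197, with ranks of 5500 in replicate 1 and 6505 in replicate 3. The 35 weaker pooled peaks of mam ran from 38.1 to 174 with a median of 85.6.

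Peaks away from promoters spanned nearly the whole range of signal of those near them. Over 1 kb from any coding TSS, 7 of the 20 peaks had a median signal of 342 (197 to 843), and the other 13 had 312 (192 to 845). Of these 7, 6 were at mam and 1 at numb. Of all 5744 peaks, 65.0% lay within 1 kb of a coding TSS. Of the 73 pooled peaks of the 4 genes, 20 (27.4%, 18.5 to 38.6%) were in the reproducible list, against 19.1% of the pooled list. The share was 4 of 5 at neur and 9 of 44 at mam.

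A wider list of 38 pathway genes was counted by group. Of these, 19 (50%) had a reproducible summit in the span and 2 kb, beside the 39.3% of coding genes. Another 13 were empty of every pooled and replicate summit, beside 34.8% of coding genes. The list was chosen with earlier results of these data known and the shares were not split by gene length, so they only describe it. Of the 4 gamma-secretase genes, which encode the complex that makes the last cut in Notch, 1 had a summit, aph-1, with a signal of 769, 197 bp from the start of Snx21 and 371 bp from its own. Of 4 protease genes 2 did, kul with 1327 and Fur1 with 706. The kul summit lay 102 bp from the start of CG7601 and 11017 bp from its own start. That of Fur1 lay 236 bp from the start of Vps33B and 196 bp from its own. Of 4 glycosylation genes 3 did, led by Gmd with 900 and rumi, the glucosyltransferase of Notch, with 324. The Gmd summit lay 82 bp from the start of CG3792 and 207 bp from its own, and the rumi summit 218 bp from the start of CG7029 and 86 bp from its own. Of 9 genes of ligand and receptor traffic 6 did, led by lgd with 1214 and dx with 555. The lgd summit lay 186 bp from the start of Reps, and the dx summit lay at the start of RpL7A. Peaks so close to the start of another gene cannot be given to the pathway gene alone.

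Among the 4 genes of asymmetric division, baz (747) and aPKC (310), which encode polarity proteins, had a reproducible summit, whereas l(2)gl and pon were empty. Of 9 nuclear co-factor genes 5 had one, led by nej, the CBP acetyltransferase, with 832, and gro, the co-repressor that E(spl) proteins recruit, with 761. The 4 Bearded-type inhibitors of Neuralized, Tom, Brd, Ocho and BobA, were all empty. They are short genes that neighbour each other on 3L, so they do not count as independent.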

How the data were processed

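Chromatin immunoprecipitation peaks of 2 replicates, 1 and 3, were analysed as 1 group named from the labels. The authors deposited 4 narrowPeak lists on dm6, and per the deposited file descriptions the replicate and pooled lists were called with a control, which was not analysed here. The signal of a peak (column 7) is the authors' deposited value, of unstated scale. Neither aligner nor peak caller nor the threshold on the irreproducible discovery rate is given in the sources used here. Lists of fixed length include background. The lists hold no read counts, and depth is unknown. The labels name both samples biological replicates.

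The summit was the peak start plus the deposited offset, set to the peak end for 4 reproducible peaks. Genes came from Ensembl release 115 (BDGP6, the dm6 coordinates), and 0 peaks lay beyond an arm's end. Of 48 symbols 48 matched, 4 by synonym. Windows were the span with 2 kb on each side, TSS windows 1 kb, and overlap meant at least 1 bp. Shares have 95% Wilson intervals, which cover counting error only and treat peaks of the same gene as independent. Every reproducible summit of the 10 genes was named, the weaker pooled ones being given by range and count, and in each wider group at most the 2 genes with the strongest reproducible summit. Python 3.11.15, pandas 2.3.3, numpy 2.4.6 and scipy 1.17.1 were used, and window counts were tested on simulated data. Alternatives changed the flank, list, overlap, TSS window, word window and replicate used. Genes and lists were chosen with earlier results of these data known.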

Additional observations from a re-analysis of the deposited data

How the results depend on the processing

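Of 31 alternative values, 28 stayed within 1.5 times their count, or within the interval of their share or median. These limits are wide with 20 peaks, so the tally is a weak check. For the share in both replicates, 85.0%, the interval was 64.0 to 94.8%. Genes with a reproducible region stayed at 4 of 10, the same 4, with a flank of 0, 1 or 5 kb, the stronger part of the reproducible list, the 1000 strongest pooled peaks, any overlap, or either replicate alone. The share of all coding genes did not stay the same. It ran from 11.1% with the 1000 strongest to 50.6% with the 5 kb flank, and was not counted for any overlap. The number of summits at these genes fell from 20 to 11 in the stronger part of the list and to 5 among the 1000 strongest pooled peaks, as shorter lists must give. Taken from 1 replicate's 5744 strongest peaks, it was 19 without replicate 1 and 22 without replicate 3. Genes with a summit at a TSS stayed at 4, or 3 among the 1000 strongest, and at 4 with either replicate left out. Coding genes with a summit at a TSS were counted only in the main setting, where they were 27.9%. The share found in both replicates was 95% when each whole replicate list was searched, 65.0% with a reciprocal overlap of 50%, and 70% with a replicate summit within 100 bp, which was added after the data were seen. The shares of 95% and 65.0% were not counted over the whole reproducible list. Depth, the control and the scale of the signal limit what the lists can show: a window without a peak means only that none of the 30000 listed peaks fell there. No paired analysis was possible because the series held 1 group.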

Other observations

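Some replicate peaks at these genes were not in the pooled list. At neur, replicate 1 listed a peak at 3R:9031891-9032145 with a signal of 272 and rank 1245, and neither replicate 3 nor the pooled list held a peak there. A further 4 words were counted after the values were seen. CGATAG stood in 3 of 20 windows (15%, against 10.5% of all), GAGAGAG in 2 (10%, against 6.46%), TATCGATA in 0 (against 3.80%) and GGTCACACT in 0 (against 2.04%).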
